A study of Homo sapiens with 5 samples.

Results

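Interleukins are secreted signals between immune cells, and the colony-stimulating factors (CSF) are grouped with them here. Most bind receptors built from a chain that recognises 1 cytokine and a chain shared by several, and these receptors activate JAK kinases and STAT transcription factors. The interleukin-1 family signals instead through MyD88 and IRAK kinases. Hodgkin lymphoma cells are known for making cytokines and for carrying cytokine receptors, and IL-13 and IL-21 have been described as factors that they make and respond to.

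The genes described here were those whose symbol begins with IL and a digit, plus EBI3 and the genes CSF1, CSF2, CSF1R, CSF2RA and CSF2RB, on probe sets annotated to 1 gene. No probe set was annotated to CSF2 alone, and that gene was not analysed here. This gave 70 of the 7713 genes measured: 31 ligands, 36 receptor chains and 3 secreted inhibitors, each with 1 probe set. The rule itself used no measured value, but it was chosen with earlier results of these data known. The cells were KMH2, an established Hodgkin lymphoma line of B lineage, treated with LY294002 at 30 uM (2 arrays) or with the solvent DMSO (3 arrays), in each case over 16 hours. LY294002 is an inhibitor of phosphoinositide 3-kinase that is also known to bind mTOR and BET bromodomain proteins. Triplicates were planned, and the series design states that 1 array was dropped for high background. A single line stands for the disease here. The labels do not tell whether replicates came from separate cultures, and the p-values therefore reflect the spread of these arrays, which may be technical. In bulk RNA, fewer cells expressing a gene and less RNA per cell cannot be told apart.

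Values are log2 probe set values. The brightness of a probe set depends on its probes as well as on the RNA, so levels are given for each gene and are not compared between genes. The median over all probe sets was 6.26 to 6.29 on the 5 arrays and served as the line between brighter and dimmer genes; it is not a detection limit. The upper quartile was 7.69 and 7.62 on the LY294002 arrays and 7.59 to 7.62 on the DMSO arrays. Of 10 Hodgkin cell markers, 8 were above that median, TNFRSF8 (CD30), CD40 and IRF4 among them, while CCL17 and CD86 were below it. CCL17 fell below through its LY294002 arrays, with a mean of 6.04, while its DMSO mean was 6.40. Of 4 B cell markers measured, MS4A1 and CD22 were above and CD79A and CD79B below, and of 8 T and NK cell markers 6 were above. IRF4 was called higher, at 0.66 ± 0.07 (limma adjusted p = 0.0473), and TNFRSF8 differed by -0.68 ± 0.17 (0.157). The IRF4 call was lost without DMSO replicate 2, without DMSO replicate 3, or with replicate number as a further term of the fit. In each of these fits 0 of all genes were called. Leaving out an LY294002 array leaves a single array in that group, and calls of such fits are not given for IRF4. CD70 and TRAF1 differed by 0.52 and 0.38, and CCL17, FSCN1 and CCL22 by -0.37, -0.30 and -0.28. CD86, CD40 and CD80 differed by -0.15, -0.13 and -0.04. The summed log2 values of the B cell markers were 28.2 and 28.3 with LY294002 and 29.1 to 29.4 with DMSO, a gap that rests on MS4A1 at -0.999, beside CD22 at -0.07, CD79A at 0.06 and CD79B at 0.01. Those of the T and NK cell markers were 55.3 and 56.2 with LY294002 and 56.7 to 56.8 with DMSO. The part of these shifts in the interleukin values was not tested. All 4 markers measured for monocytes and macrophages and all 3 for endothelium lay below the median. Of 5 granulocyte and mast cell markers CPA3 was above it (difference -0.08), and of 4 fibroblast markers COL1A1 (difference -0.57, limma adjusted p = 0.367).

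Of the 70 genes, 27 lay above the median by their mean over all arrays (38.6%, against 50.1% of all genes): 10 ligands, 16 receptor chains and the inhibitor IL18BP. IL22 was the member just above this line, at a mean of 6.28, and IL22RA1 the member just below it, at 6.15. IL22 passed through its DMSO arrays, at 6.32, 6.30 and 6.30, while its LY294002 arrays were at 6.22 and 6.24, below the line. LY294002 was compared with DMSO by limma, a linear model with a spread shared across probe sets, with Benjamini-Hochberg adjustment over all of them. At an adjusted p under 0.05, 0 of the 70 genes were called, where 0.908% of all genes were. At an unadjusted p under 0.05 there were 16, or 22.9%, against 17.1% of all genes; 6 of them were higher with LY294002, where the share of all genes was 10.6%, and 10 lower, where it was 6.5%. The groups did not overlap for 20 genes, or 28.6%, against 29.6% of all genes: LY294002 gave the higher values in 7, where the share of all genes was 16.2%, and the lower values in 13, where it was 13.4%. The median log2 difference, LY294002 minus DMSO, was -0.02 over the 70 genes and -0.01 over all genes.

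Brighter genes carried most of the differences. Among the 27 genes above the median, 12 had an unadjusted p under 0.05, or 44.4%, against 26.2% of all genes above it; 5 were higher and 7 lower, where the shares were 17% and 9.22%. IL22 is 1 of the 7 and had to be lower, given how it passed. Above the median on every array were 26 genes, of which 5 were higher and 6 lower. Of all 3636 genes above it on every array, 617 were higher and 328 lower. The arrays of the groups did not overlap for 13 of the 27, or 48.1%, against 40.4% of all genes above the median. LY294002 was higher in 5 and lower in 8 of them, where the shares were 24.7% and 15.6%. IL22 is again among the lower ones, and of the 26 genes LY294002 was higher in 5 and lower in 7. Of the 3636 genes it was higher in 904 and lower in 556. A log2 difference of over 0.3 in size was seen in 10 of the 27, or 37%, and in 17.8% of all genes above the median. Of the 43 dimmer genes 4 had an unadjusted p under 0.05, where the share of all dimmer genes was 8%, and IL11RA alone passed 0.3 in size. Of the 70 genes, 30 (42.9%) had identical values on arrays of 1 group, against 38.1% of all genes, and IL5 and IL37 had the same value on all 5 arrays.

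**Figure D1:**
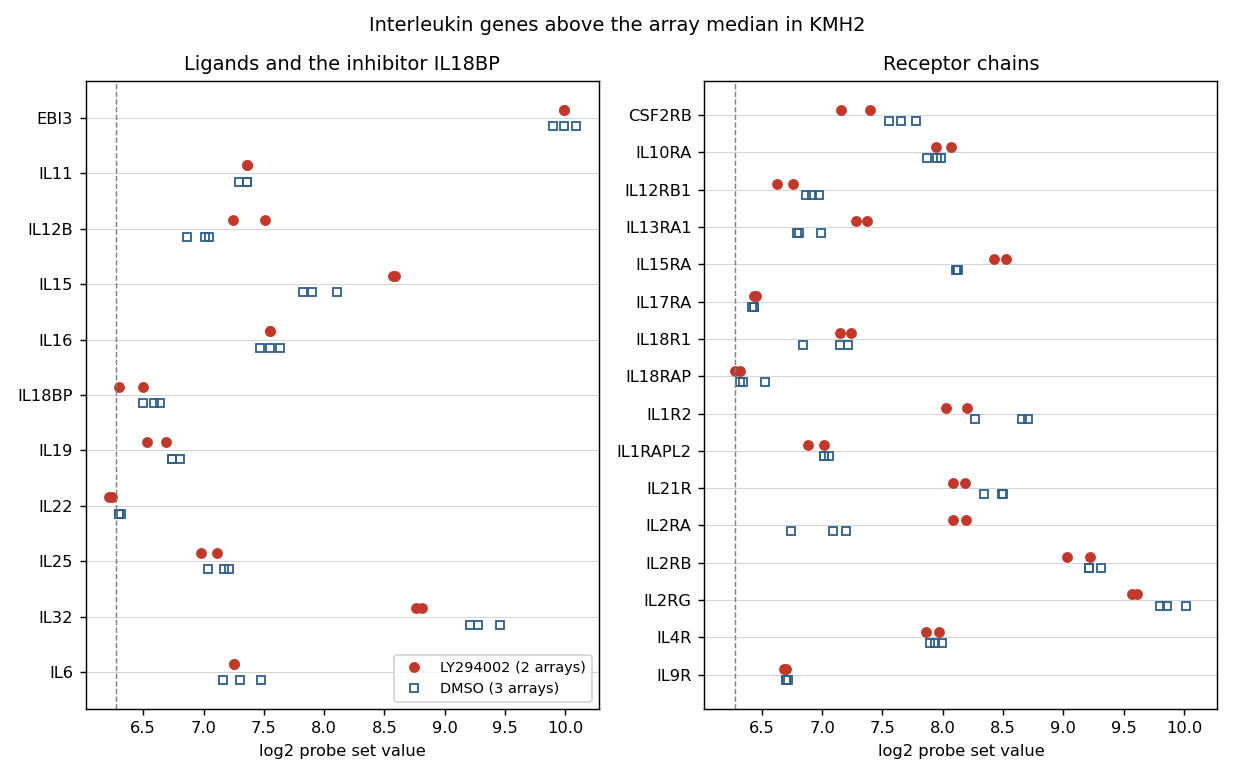
Log2 probe set values (x axis) of the 27 genes above the median, with the 2 LY294002 arrays as filled circles and the 3 DMSO arrays as open squares below them; the dashed line is the mean of the array medians, 6.27. IL2RA, IL15, IL15RA, IL13RA1 and IL12B have both LY294002 arrays to the right of all DMSO arrays, and IL32, IL1R2, IL21R, IL2RG, CSF2RB, IL12RB1, IL19 and IL22 have them to the left.

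**Figure D2:**
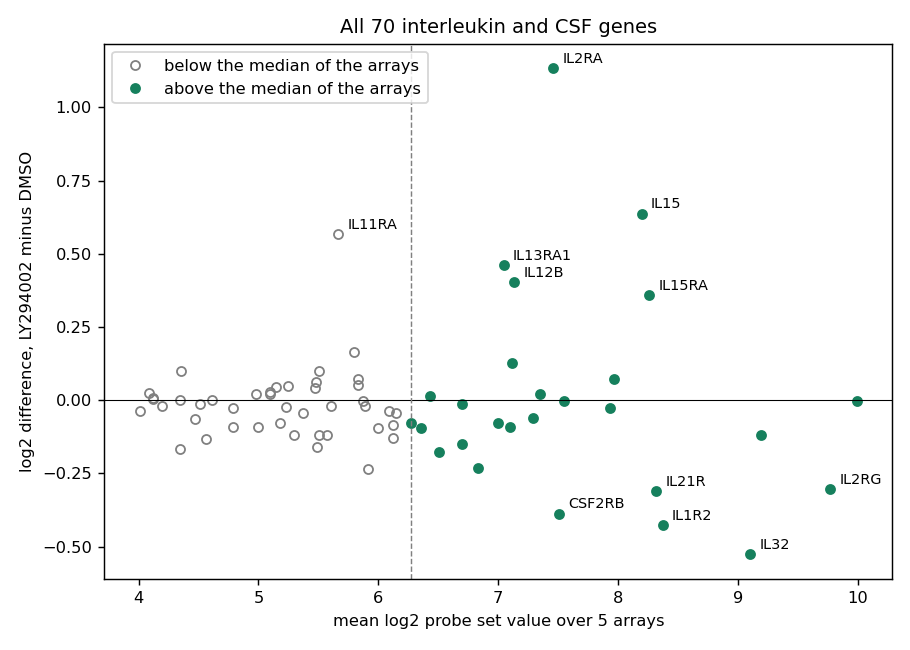
Log2 difference, LY294002 minus DMSO (y axis), against the mean log2 value over 5 arrays (x axis) for all 70 genes, with names at a size of over 0.3. Filled points are the 27 genes above the median, and among the 43 open points IL11RA stands apart at 0.57.

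Among the ligands, IL15 had the highest difference and IL32 the lowest. IL-15 is a growth factor of natural killer and memory T cells that is presented on the cell surface by its own receptor chain. IL15 was at 8.57 and 8.59 on the LY294002 arrays and at 7.83, 8.10 and 7.90 on the DMSO arrays. The groups did not overlap, and the gap between them was wider than the spread of the DMSO arrays. The difference was 0.64 ± 0.09 (standard error of the limma fit, 2 against 3 arrays; 95% interval 0.39 to 0.88), or 1.55-fold, with a limma adjusted p of 0.0702. It was 0.58 to 0.72 without any 1 array.

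IL32, a pro-inflammatory cytokine, was at 8.82 and 8.76 with LY294002 and at 9.21, 9.27 and 9.46 with DMSO. Every LY294002 value lay below every DMSO value, at a difference of -0.53 ± 0.08 (95% interval -0.75 to -0.30; limma adjusted p = 0.0776). IL12B, the p40 subunit shared by IL-12 and IL-23, was at 7.51 and 7.24 with LY294002 and at 6.86, 7.01 and 7.05 with DMSO. The groups were again apart, and the LY294002 arrays differed from each other by more than the DMSO arrays did. The difference for IL12B was 0.40 ± 0.10 (limma adjusted p = 0.169), or 0.27 without LY294002 replicate 1.

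The other ligands above the median showed smaller differences. EBI3, the subunit shared by IL-27 and IL-35, was at 9.99 on both LY294002 arrays and at 9.90, 9.99 and 10.09 with DMSO. The LY294002 values lay inside the DMSO range, with a difference of -0.0019 and a 95% interval of -0.17 to 0.16. The same overlap was seen for IL16, a T cell attractant (-0.0026, interval -0.15 to 0.15), and for IL6 and IL11, which signal through the chain gp130. IL6 differed by -0.06 (interval -0.32 to 0.20) and IL11 by 0.02 (interval -0.07 to 0.11). IL25, of the IL-17 family, differed by -0.09 (interval -0.29 to 0.10). IL19 and IL22, of the IL-10 family, differed by -0.15 (interval -0.31 to 0.0057) and by -0.08 (interval -0.15 to -0.007), with separate groups in each. These intervals are for single genes, with no adjustment. EBI3, IL11, IL16, IL19 and IL22 had identical values on arrays of 1 group, so their intervals lean on the spread shared across probe sets. IL18BP, which binds and neutralises IL-18, differed by -0.18 ± 0.08 (limma adjusted p = 0.371), and its LY294002 replicate 2 was at the value of the lowest DMSO array.

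The 21 dimmer ligands had differences of -0.16 to 0.17, and 0 of them had an unadjusted p under 0.05. IL13, a growth factor described in Hodgkin cells, was at 5.76 and 6.04 with LY294002 and at 5.68, 5.77 and 5.76 with DMSO. Only LY294002 replicate 2 was above the DMSO range, and the difference was 0.17 ± 0.09 (limma adjusted p = 0.438), or 0.03 without that array. IL12A, the p35 subunit of IL-12, was the lowest of these, at -0.16 ± 0.08 (0.408). IL2 and IL21, chosen after their values were seen as ligands of the receptors described next, differed by 0.0059 and -0.12, with 95% intervals of -0.06 to 0.08 and -0.26 to 0.02. IL2 had the same value on every array but DMSO replicate 2, so its interval rests largely on the spread shared across probe sets. The inhibitors IL1RN and IL36RN, antagonists of IL-1 and IL-36, were below the median and differed by -0.13 and -0.02.

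**Figure D3:**
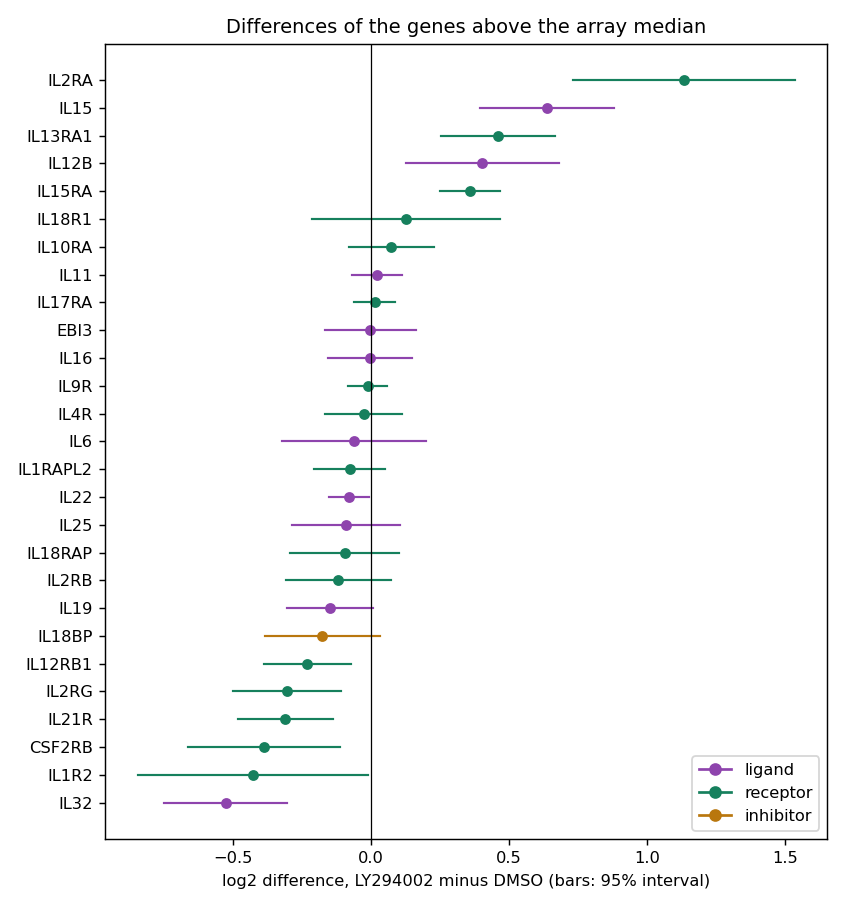
Log2 difference, LY294002 minus DMSO (x axis), of the 27 genes above the median, with the 95% interval of the limma fit for each gene as a bar; colours mark ligands, receptor chains and the inhibitor. IL2RA stands highest at 1.13 and IL32 lowest at -0.53.

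Of the common gamma chain family, 0 receptor genes were called, and single chains had differences of either sign. IL2RA (CD25), the alpha chain that gives the IL-2 receptor its high affinity, was at 8.09 and 8.19 on the LY294002 arrays and at 6.74, 7.19 and 7.09 on the DMSO arrays. DMSO replicate 1 was the lowest, and both LY294002 arrays lay well above the highest DMSO array. The difference was 1.13 ± 0.15 (95% interval 0.73 to 1.53), or 2.19-fold, with a limma adjusted p of 0.0599; without any 1 array it was 1.00 to 1.23. IL2RA had the largest difference of the 70 genes.

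IL15RA, which captures IL-15 and presents it to other cells, was at 8.53 and 8.42 with LY294002 and at 8.13, 8.12 and 8.11 with DMSO. The DMSO arrays were nearly level, and both LY294002 arrays were above them. Its difference was 0.36 ± 0.04 (95% interval 0.25 to 0.47), with a limma adjusted p of 0.0504, the lowest of the 70. IL2RB, the signalling chain shared by the IL-2 and IL-15 receptors, was at 9.22 and 9.03 with LY294002 and at 9.21, 9.31 and 9.21 with DMSO. LY294002 replicate 1 lay inside the DMSO range, and the difference was -0.12 (interval -0.31 to 0.07).

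IL2RG, the common gamma chain of the receptors for IL-2, IL-4, IL-7, IL-9, IL-15 and IL-21, was at 9.57 and 9.61 with LY294002 and at 10.02, 9.86 and 9.80 with DMSO. Every LY294002 value was the lower one, at a difference of -0.30 ± 0.07 (limma adjusted p = 0.155). IL21R, the specific chain of the IL-21 receptor, was at 8.18 and 8.09 with LY294002 and at 8.50, 8.49 and 8.35 with DMSO. Its groups were also apart, at -0.31 ± 0.06 (0.12). IL9R, of the IL-9 receptor, differed by -0.01 (interval -0.08 to 0.06), and IL7R, of the IL-7 receptor and below the median, by -0.12. The IL9R probe set is of the kind that can bind several transcripts, as are those of IL2RA, IL15, IL15RA and IL32. Counted without IL4 and IL4R, 7 of the 11 ligand and receptor genes of this family were above the median, and 5 of the 11 had differences over 0.3 in size: IL2RA, IL15 and IL15RA above 0, IL2RG and IL21R below it. All 5 are among the 7 brighter genes, and a difference of that size was seen in 10.4% of all genes and 17.8% of all genes above the median.

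**Figure D4:**
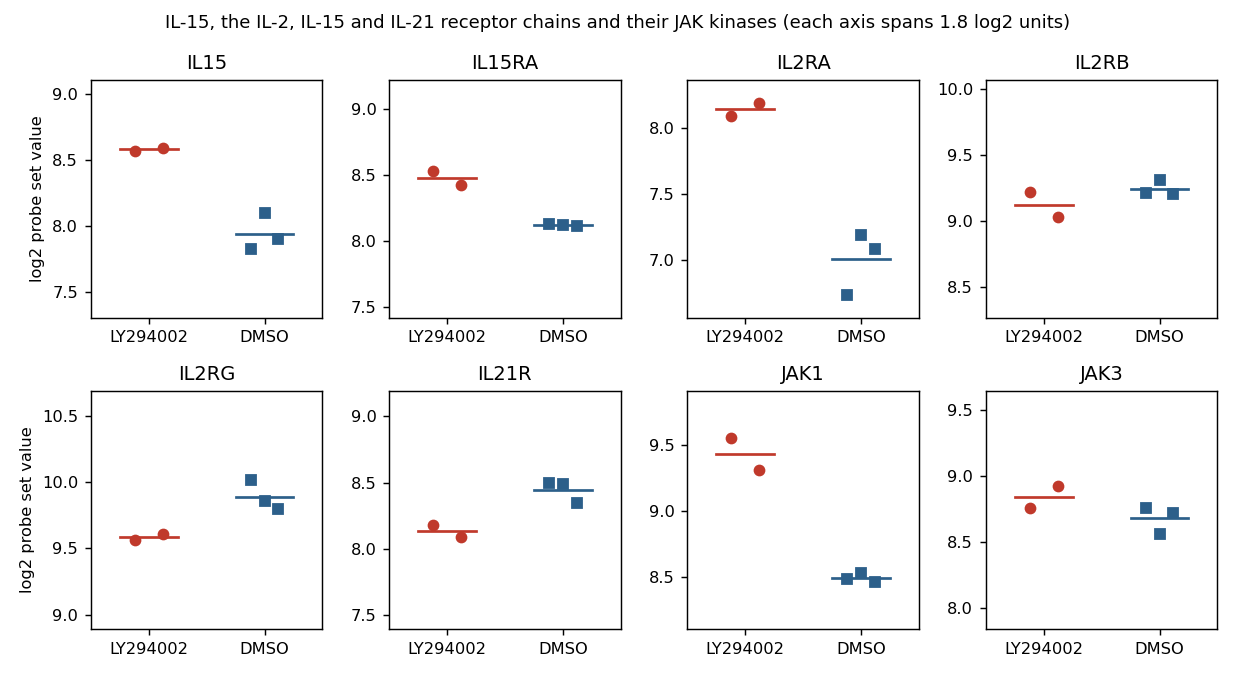
Log2 probe set values (y axes, each spanning the same width) of IL15, the IL-2, IL-15 and IL-21 receptor chains and the kinases JAK1 and JAK3 on the 2 LY294002 arrays and the 3 DMSO arrays, with group means as lines. IL15, IL15RA, IL2RA and JAK1 have both LY294002 arrays above all DMSO arrays, IL2RG and IL21R have them below, and IL2RB and JAK3 overlap.

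IL4R joins either the common gamma chain, in a receptor for IL-4, or IL13RA1, in a receptor for IL-4 and IL-13. IL13RA1 was at 7.37 and 7.28 with LY294002 and at 6.81, 6.99 and 6.79 with DMSO. The groups were apart, and the difference was 0.46 ± 0.08 (95% interval 0.26 to 0.67; limma adjusted p = 0.0827). IL4R was at 7.97 and 7.86 with LY294002 and at 7.89, 7.94 and 7.995 with DMSO, which overlap, at -0.03 (interval -0.17 to 0.11). IL13RA2, a decoy receptor of IL-13, was below the median and differed by 0.02.

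Receptor genes with lower values also came from other families. CSF2RB, the beta chain shared by the receptors for IL-3, IL-5 and GM-CSF, was at 7.40 and 7.16 with LY294002 and at 7.78, 7.66 and 7.56 with DMSO. No array overlapped the other group, and the difference was -0.39 ± 0.10 (limma adjusted p = 0.175). The alpha chains IL3RA, IL5RA and CSF2RA were below the median and differed by -0.02, -0.12 and -0.01. IL1R2, a decoy receptor that binds IL-1 without signalling, was at 8.20 and 8.03 with LY294002 and at 8.27, 8.66 and 8.70 with DMSO. DMSO replicate 1 lay near the LY294002 arrays, and the difference was -0.43 ± 0.16 (limma adjusted p = 0.286), or -0.56 without that array. IL1R1, the signalling receptor of IL-1, was far below the median line at 4.76 and 4.69 with LY294002 and 4.81 to 4.83 with DMSO. IL12RB1, shared by the receptors for IL-12 and IL-23, was at 6.62 and 6.76 with LY294002 and at 6.87, 6.92 and 6.98 with DMSO, a difference of -0.23 ± 0.06 (0.168).

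The other 5 receptor chains above the median had 95% intervals that included 0. IL10RA, the ligand-binding chain of the IL-10 receptor, differed by 0.07 (interval -0.08 to 0.23). The IL-18 receptor chains IL18R1 and IL18RAP differed by 0.13 (interval -0.22 to 0.47) and -0.10 (interval -0.29 to 0.10). IL17RA, shared by receptors of the IL-17 family, differed by 0.01 (interval -0.06 to 0.09) and IL1RAPL2 by -0.08 (interval -0.21 to 0.05). Like IL9R, both had identical values on arrays of 1 group. Among the 20 dimmer receptor chains, IL11RA, the alpha chain of the IL-11 receptor, was at 6.22 and 5.79 with LY294002 and at 5.44, 5.43 and 5.44 with DMSO. The LY294002 arrays were above the DMSO arrays and far from each other, so that the difference of 0.57 ± 0.14 (limma adjusted p = 0.151) was 0.35 without LY294002 replicate 1. The highest of the other dimmer receptors was IL1RL2, an IL-36 receptor chain, at 0.10 ± 0.06. IL27RA, of the IL-27 receptor, and IL6R, of the IL-6 receptor, were the lowest, at -0.23 ± 0.09 (limma adjusted p = 0.285) and -0.17 ± 0.05 (0.193).

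In the limma fit, 5 of the 27 genes above the median had an adjusted p under 0.1, where 6.76% of all genes above the median did: IL15RA, IL2RA, IL15, IL32 and IL13RA1. The 250 bases before the start of transcription that RefSeq lists first are shown for these genes, because these members had the lowest p-values among the brighter genes; IL15 is named only. Capitals mark matches on either strand to 4 motifs, TTCNNNGAA of STAT factors, GGANTTTCC of NF-kB, GAAANNGAA of interferon regulatory factors and GTAAACA of FOXO factors.
IL2RA, GRCh38.p14 chr10:6062368-6062617, minus strand: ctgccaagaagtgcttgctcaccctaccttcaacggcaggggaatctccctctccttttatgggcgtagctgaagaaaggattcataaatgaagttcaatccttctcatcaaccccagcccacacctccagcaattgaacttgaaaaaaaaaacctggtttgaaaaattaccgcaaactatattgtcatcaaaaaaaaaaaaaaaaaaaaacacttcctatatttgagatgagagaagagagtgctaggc
IL15RA, GRCh38.p14 chr10:5978047-5978296, minus strand: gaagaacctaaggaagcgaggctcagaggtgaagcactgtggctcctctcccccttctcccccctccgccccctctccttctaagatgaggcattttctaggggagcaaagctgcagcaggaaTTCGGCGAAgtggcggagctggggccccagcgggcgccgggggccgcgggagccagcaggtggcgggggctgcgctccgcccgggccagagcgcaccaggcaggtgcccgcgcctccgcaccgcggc
IL13RA1, GRCh38.p14 chrX:118727356-118727605, plus strand: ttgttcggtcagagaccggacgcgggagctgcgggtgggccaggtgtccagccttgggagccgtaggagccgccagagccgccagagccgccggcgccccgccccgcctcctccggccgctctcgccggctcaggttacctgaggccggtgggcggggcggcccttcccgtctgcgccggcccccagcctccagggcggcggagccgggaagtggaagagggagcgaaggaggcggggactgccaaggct
IL32, GRCh38.p14 chr16:3065153-3065402, plus strand: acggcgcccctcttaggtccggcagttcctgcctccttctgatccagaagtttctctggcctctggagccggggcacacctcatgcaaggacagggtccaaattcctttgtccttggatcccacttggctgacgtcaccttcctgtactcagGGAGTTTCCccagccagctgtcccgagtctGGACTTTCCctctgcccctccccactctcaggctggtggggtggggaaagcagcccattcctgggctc
The IL15RA sequence holds TTCGGCGAA, a STAT match at -127 to -119 from the start, and the IL32 sequence holds NF-kB matches GGAGTTTCC at -98 to -90 and GGACTTTCC at -68 to -60. The IL2RA and IL13RA1 sequences hold no match to these letters, and no matches overlapped. IL15RA also has a match to the motif of interferon regulatory factors, before a listed start that is not shown. Over all 35114 RefSeq promoters, 6.57% held the STAT motif, 1.45% the NF-kB motif, 6.88% that of interferon regulatory factors and 2.98% that of FOXO factors. Over the 95 promoters listed for 59 of the 70 genes the shares were 7.37%, 6.32%, 10.5% and 3.16%, with several promoters from some genes. A match is a description of the sequence and not a bound site.

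Signalling below these receptors was described by a list of 45 genes for JAK kinases, STAT factors, their inhibitors and the MyD88 pathway. Of these, 37 were measured. This list, too, was chosen with earlier results of these data known. JAK1, the kinase that pairs with JAK3 on receptors that hold the common gamma chain, rose. It was at 9.55 and 9.31 with LY294002 and at 8.49, 8.53 and 8.47 with DMSO. Both LY294002 arrays were far above the DMSO arrays, which lay close together. The difference was 0.94 ± 0.08 (95% interval 0.73 to 1.15), or 1.91-fold, with a limma adjusted p of 0.0339. JAK1 was the 1 gene of the 37 called, or 2.7%, against 0.908% of all genes. The call was lost without any 1 array, with JAK1 at 0.82 to 1.05 and limma adjusted p-values of 0.0685 to 0.181, and also with the replicate block (adjusted p = 0.348) and without variance moderation (0.231).

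Of the 37 genes, 14 had an unadjusted p under 0.05, or 37.8%, against 17.1% of all genes. Of these, 10 were higher and 4 lower, where the shares of all genes were 10.6% and 6.5%. The list is brighter than the array, with 64.9% of it above the median. Among its 24 genes above the median, 6 were higher and 3 lower, where the shares of all genes above it were 17% and 9.22%. The median difference of the 37 genes was 0.07, against -0.01 over all genes. PIM2, a kinase gene induced by STAT factors, was at 8.70 and 8.48 with LY294002 and at 7.96, 7.98 and 7.86 with DMSO. Its groups were apart at 0.66 ± 0.08 (limma adjusted p = 0.0539). STAM2, below the median and chosen after its value was seen, was also apart, at 0.67 ± 0.09 (limma adjusted p = 0.0576). MYD88, the adaptor of IL-1 family receptors, was at 8.87 and 8.71 with LY294002 and at 9.24, 9.28 and 9.12 with DMSO. It was lower on each LY294002 array, at -0.43 ± 0.07 (0.0877). SOCS1, an inhibitor of JAK kinases, was at 7.54 and 7.03 with LY294002 and at 7.72, 7.53 and 7.50 with DMSO. Only LY294002 replicate 2 was below the DMSO range, and the difference was -0.30 ± 0.17 (0.439), or -0.05 without that array. STAT3, STAT6 and JAK3, chosen after their values were seen, differed by 0.58 ± 0.11 (limma adjusted p = 0.101), -0.19 ± 0.05 (0.169) and 0.16 ± 0.09 (0.431). STAT6 carries the signal of IL-4 and IL-13, and STAT3 that of IL-6, IL-10 and IL-21.

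**Figure D5:**
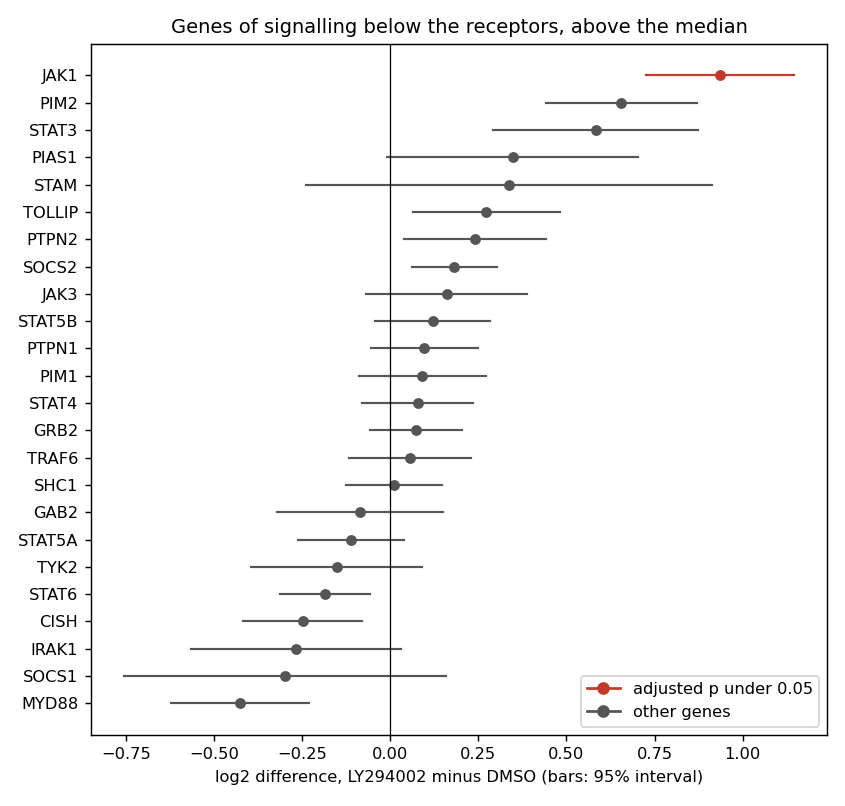
Log2 difference, LY294002 minus DMSO (x axis), of the 24 signalling genes above the median, with the 95% interval of the limma fit for each gene as a bar. JAK1, at 0.94, is the gene with an adjusted p under 0.05, and MYD88 is the lowest at -0.43.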

How the data were processed

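Biotin-labelled cRNA from KMH2 total RNA was hybridised to Affymetrix arrays, per the labels' protocols. The deposited table holds log2 probe set values made by the authors with affy, an R package named in the submitters' processing notes; the sources used here do not give its version, background correction or summary method. The values were taken as already normalized and used as deposited. Of 8793 probe sets, 47 controls were left out and 8746 fitted. Genes were named from the platform annotation (7840 probe sets with 1 symbol, 388 with several, 518 with none), by the brightest probe set of each. All 70 members and all 37 signalling genes have 1 probe set, and all 70 gene identifiers carry the same symbol in RefSeq. For 18 of the 70 the probe set name marks possible binding of several transcripts. Of these, 9 are above the median, IL2RA, IL15, IL15RA and IL32 among them. The members and lists were chosen with earlier results of these data known.

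LY294002 was compared with DMSO by limma 3.58.1 in R 4.3.3 (two-sided, group as the only term, 3 residual degrees of freedom), checked on simulated data. Named genes are members above the median, members past the threshold, the 3 highest and 3 lowest of the rest, and signalling genes past the threshold or among the 2 highest and 2 lowest above the median. The 14 alternatives changed the normalization (median centring or quantile), the probe sets fitted (without the dimmest 40%, without those tied within a group, or averaged per gene), the spread (a robust prior with intensity trend, array weights, unmoderated), the design (replicate block) or the arrays (each left out). The number of arrays limits the precision. Promoter sequences came from RefSeq (GRCh38.p14), and the motifs were chosen after the values were seen. No genome build is named for the array.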

Additional observations from a re-analysis of the deposited data

How the results depend on the processing

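The count of called interleukin and CSF genes, 0 by limma with 16 at an unadjusted p under 0.05, moved with the choice of probe sets and with the normalization. It was 9 of 40 without tied probe sets, where 10.7% of all genes were called, 6 after quantile normalization, where 3.88% were, and 5 of 35 without the dimmest 40% of probe sets, where 4.37% were. It was 3 after median centring (1.91% of all genes). It was 1 with an intensity trend and a robust prior (IL2RA, 1.31% of all genes) or with probe sets averaged per gene (IL15RA, 1.13%). Leaving out tied or dim probe sets lowers the number of tests and also changes the spread shared across probe sets. The cause of these moves was not tested. IL2RA and IL15RA were called in 5 of 14 alternatives each, IL15 in 4, IL13RA1 and IL32 in 3, IL21R in 2, and CSF2RB, IL12B and IL11RA only without tied probe sets. The count was 0 with array weights, with the replicate block and without variance moderation. It was also 0 with any 1 DMSO array left out, where 0 to 0.0519% of all genes were called. In those fits 11 to 14 of the 70 members had an unadjusted p under 0.05, beside 946 to 1165 of all 7713 genes. Leaving out an LY294002 array leaves a single array in that group. Counts of such fits are not given, here or for the signalling genes.

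The signalling count was 1 of 37 in the comparison reported, where 0.908% of all genes were called. It was 5 of 37 after quantile normalization (3.88% of all genes) and 5 of 28 without tied probe sets (10.7%). It was 3 of 37 after median centring (1.91%) and with an intensity trend and a robust prior (1.31%). Without the dimmest 40% it was 2 of 27 (4.37%). It was 0 without variance moderation (0.013%), with the replicate block (0%) and without any 1 DMSO array (0 to 0.0519%). The count of members above the median was 26 when asked of every array and 10 above the upper quartile of 7.61. The members' median difference was -0.0688 over the 40 members left without tied probe sets and -0.061 over the 35 left without the dimmest 40%, both further from 0 than the -0.0215 over all 70. With 1 array left out it ran from -0.0325 to -0.00535.

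With the replicate block the members' median was -0.01. Deviations from the group means correlated at 0.0021 between the arrays of replicate number 1 and at -0.21 between those of number 2. With 2 LY294002 arrays, the deviations of 1 mirror those of the other. These correlations are therefore not independent and cannot tell whether the replicate numbers pair the arrays. The sign turned, or the difference became 0, for 5 genes near 0, none of them called. With the replicate block EBI3 was at 0.0445 and IL16 at 0.04, with array weights IL16 was at 0.00354, and after quantile normalization IL11 was at -0.0351. With 1 array left out EBI3 ran from -0.0474 to 0.0445, IL11 from 0 to 0.032, IL16 from -0.0439 to 0.04, IL4R from -0.0818 to 0.0276 and IL6 from -0.135 to 0.0196. Of 503 values of named genes under the alternatives, 455 kept direction and call.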
